A study of Mus musculus with 12 samples.

Results

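The Hox cluster genes are the 38 genes whose names in the scanner files consist of Hox, a cluster letter from a to d and a paralog number, out of 27548 genes on the array. They were measured with 50 of its 41174 probes. Cluster a has 11 of them, cluster b 10, cluster c 8 and cluster d 9. The RNA came from cells of CD-1 mouse embryos at embryonic day 7.5, taken from 1 pool of about 300 embryos of 25 litters and sorted by 2 surface proteins. Endoglin (gene Eng) is a co-receptor of the TGF-beta family, and Flk1 (gene Kdr) is a receptor of vascular endothelial growth factor. There were 4 fractions with 3 arrays each (n = 3) and 3000 cells for each sample. Cells with neither protein (Eng-Flk1-) are called double-negative here, those with Flk1 alone (Eng-Flk1+) Flk1-only, those with both (Eng+Flk1+) double-positive and those with Endoglin alone (Eng+Flk1-) Endoglin-only. No allele or agent distinguished the fractions. Because all sorted samples came from the same pool, the p-values measure the spread between sorts and amplifications, which may be technical, and not that between embryos.

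Hox genes encode transcription factors that bind DNA through a homeodomain and give cells their position along the body axis. Within a cluster the genes lie in the order of their paralog numbers. Genes of low number (anterior) are switched on first and farthest to the head during gastrulation, and genes of high number (posterior) follow later and toward the tail, some of them in the allantois, the mesoderm that forms the umbilical vessels. Their proteins work with TALE cofactors such as Meis and Pbx, caudal proteins and retinoic acid promote their transcription, and Polycomb and Trithorax complexes keep them off or on.

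Positions of probes are those in the scanner files, build mm8. No annotation of build mm8 was used here, so exons and introns are not given. Stop codons in all 3 forward frames were found in 10 of the 50 probes, among them those of Hoxd1, Hoxd8 and Hoxa11, so these probes are not coding over their whole length.

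A probe counts as well above background on an array when the scanner software flagged its spot so. A level is the log2 of the signal with the array's own 75th percentile taken away, and it is compared only with the level of the same probe on other arrays. Of the 38 Hox genes, 27 (71.05%) were well above background on all 12 arrays, against 63.84% of all genes. On all 3 arrays of a fraction this held for 29 genes in double-negative, 34 in Flk1-only, 31 in double-positive and 33 in Endoglin-only. The shares of all genes were 66.45%, 77.1%, 76.51% and 76.24% in that order. The arrays of double-negative were dimmer, with 66.5% to 76.3% of spots well above background against 80.2% to 83.3% on the other 9 arrays. They also differed more among themselves, with a median SD of the tested Hox genes of 1.06 against 0.670 in Flk1-only, 0.727 in double-positive and 0.791 in Endoglin-only.

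Along the clusters, detection differed most at paralog group 8. By the brightest probe of each gene, the 3 genes of group 8 (Hoxb8, Hoxc8, Hoxd8) were well above background on every array of Flk1-only and of Endoglin-only. This held for 0 of them in double-negative and for 1, Hoxb8, in double-positive. Hoxb8 was also well above background on 2 of 3 double-negative arrays. Its other probe was so on 1, 2, 2 and 0 arrays of double-negative, Flk1-only, double-positive and Endoglin-only. The groups 2, 3, 4, 6, 9, 10 and 12 were well above background on every array by the brightest probe of each gene. The other probes of Hoxa3, Hoxa4, Hoxb3, Hoxb9, Hoxd3 and Hoxd9 were not. Among posterior genes of paralogs 9 to 13, 13 of 15 were detected on all 3 arrays of double-negative, 12 of Flk1-only, 13 of double-positive and 13 of Endoglin-only. In the same order, 6, 8, 7 and 6 of the 8 anterior genes (paralogs 1 to 3) and 10, 14, 11 and 14 of the 15 central genes (4 to 8) were detected.

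**Figure D1:**
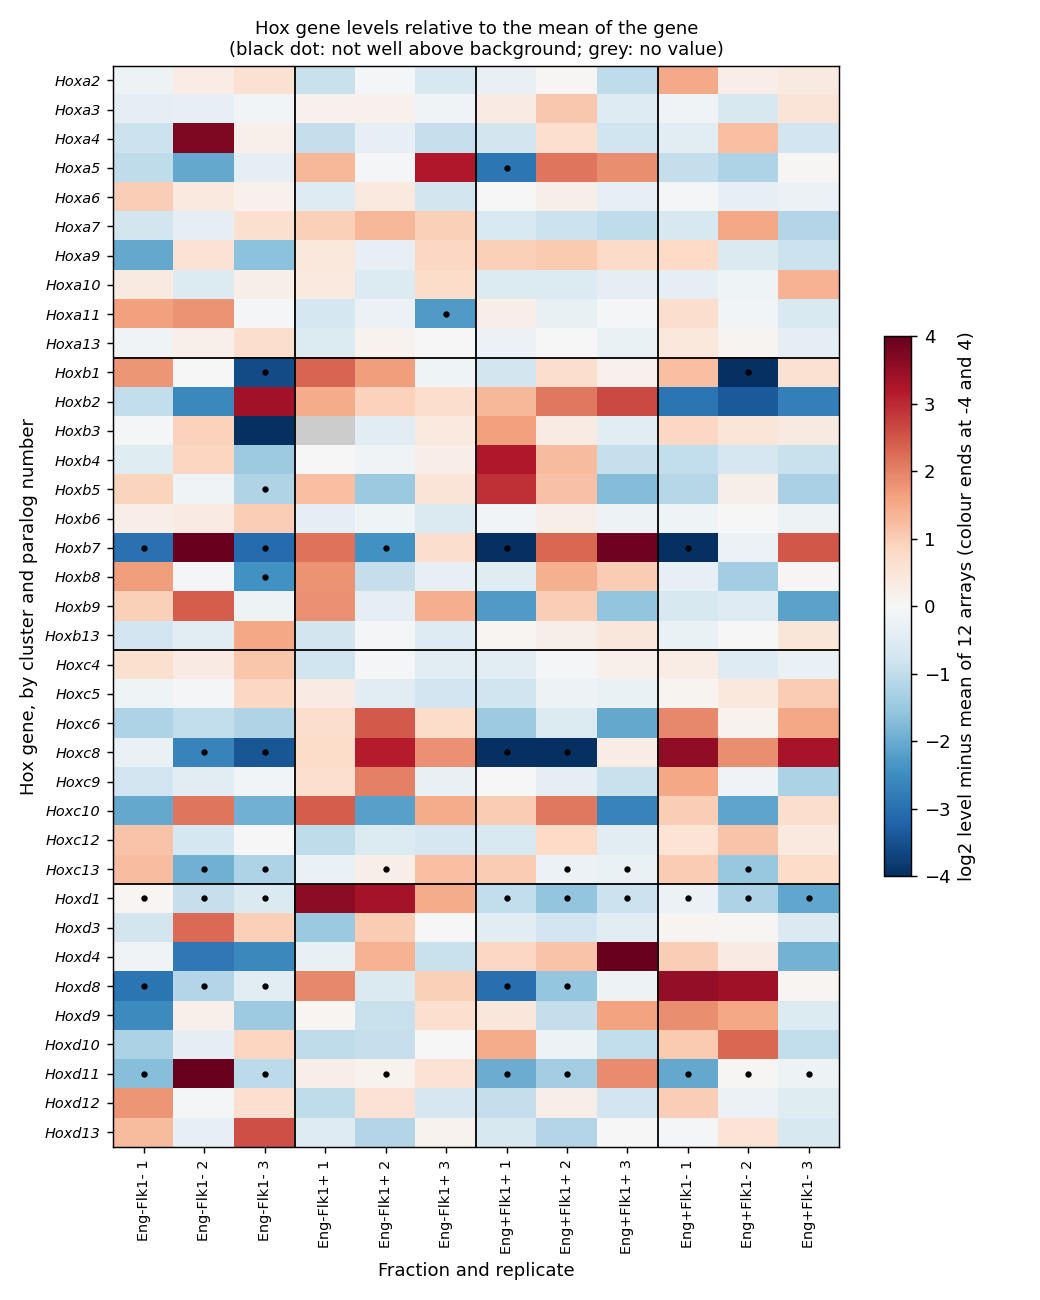
Level of 37 Hox genes (rows, by cluster and paralog number) on each of the 12 arrays (columns), as log2 level minus the mean of the gene, with a black dot where the probe was not well above background and grey where no value was left. Hoxd1 is above its mean on the 3 Flk1-only arrays, and Hoxc6 and Hoxc8 on the arrays of the fractions with 1 of the 2 proteins.

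To be tested, a gene had to be well above background throughout 1 fraction or more, which was met by 35 of the 38 Hox genes and by 22724 genes in all. Hoxb7, Hoxc13 and Hoxd11 were not tested. Hoxb7 was well above background on 1, 2, 2 and 2 arrays of double-negative, Flk1-only, double-positive and Endoglin-only, Hoxc13 on 1, 2, 1 and 2, and Hoxd11 on 1, 2, 1 and 0. The level of a tested member ranged over 1.25 (Hoxa13) to 7.75 (Hoxc8) between its lowest and highest array, with a median range of 4.05 on the log2 scale.

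The fractions were compared with limma, and a gene was called at an adjusted p under 0.05 over all genes tested. Hoxd1 was the member called. It rose in Flk1-only over double-negative, where 1 of 35 Hox genes was called against 1.91% of all genes. In the other 5 comparisons 0 Hox genes were called by limma. The share of all genes called was 0.0264% in double-positive minus Flk1-only, 1.46% in Endoglin-only minus double-negative, 0.295% in double-positive minus Endoglin-only, 2.36% in double-positive minus double-negative and 0.101% in Flk1-only minus Endoglin-only. Without adjustment, p was under 0.05 for 4, 5, 6, 3 and 4 Hox genes in those comparisons (4.78%, 14.4%, 6.6%, 15.5% and 5.37% of all genes), and for 7 in Flk1-only minus double-negative (17.7%). Hox genes whose arrays did not overlap between 2 fractions were counted in the same way. In double-positive minus Flk1-only they were 1 higher (7.45% of all genes) and 4 lower (6.37%), in Endoglin-only minus double-negative 3 (8.93%) and 5 (10.1%), and in Flk1-only minus double-negative 5 (9.42%) and 3 (12.7%). In double-positive minus Endoglin-only they were 1 (7.82%) and 5 (7.35%), in double-positive minus double-negative 2 (8.88%) and 3 (9.19%), and in Flk1-only minus Endoglin-only 4 (7.08%) and 2 (8.59%). The F test for any difference among the 4 fractions called 1 Hox gene (2.06% of all genes), again Hoxd1 (adjusted p = 0.0221). With every probe tested on its own, Hoxd1 was the Hox gene called in Flk1-only minus double-negative too (adjusted p = 0.0295, 2.61% of all probes called). Hoxd1 has 1 probe on the array, so that test used the same values.

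The tested Hox genes did not lie mainly on one side. Their median log2 difference was 0.09 in double-positive minus Flk1-only (all genes 0.10), 0.07 in Endoglin-only minus double-negative (all genes -0.06), 0.22 in Flk1-only minus double-negative (all genes -0.13) and -0.04 in double-positive minus Endoglin-only (all genes -0.01). It was -0.24 in double-positive minus double-negative (all genes -0.06) and -0.08 in Flk1-only minus Endoglin-only (all genes -0.09). The sign counts against double-negative moved with the scaling. In Endoglin-only minus double-negative 18 of 35 were positive, against 14 after normexp background correction, 14 after quantile normalization and 8 in the authors' deposited table. In Flk1-only minus double-negative the count was 19, against 15, 16 and 14, and in double-positive minus double-negative it was 15, against 12, 15 and 10. The median of all genes also shifted there, to between -0.63 and -0.74 in the deposited table.

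Among the anterior genes, Hoxd1 was detected in Flk1-only alone. Hoxd1 belongs to the paralog group switched on earliest in the embryo, and its probe lies at chr2:74565782-74565841, at the anterior end of the cluster d probes. The processed signals, in the units of the scanner, were 87.6, 67.0 and 18.2 on the Flk1-only arrays. They were 4.25, 2.65 and 1.84 in double-negative, 3.02, 1.98 and 3.26 in double-positive and 5.36, 1.99 and 1.74 in Endoglin-only. The 3 Flk1-only arrays stood above all 9 others, and all of these signals are dim. The probe was well above background on those 3 arrays and no other, so Hoxd1 entered the test through the fraction in which it is high.

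On the log2 scale the level of Hoxd1 was -3.69 ± 1.14 (SD, n = 3) in Flk1-only, -6.95 ± 0.50 in double-negative, -7.62 ± 0.39 in double-positive and -7.68 ± 0.92 in Endoglin-only. Flk1-only was higher than double-negative by 3.26 ± 0.65 (SE; limma adjusted p = 0.0327, and 0.0433 with no filter on dim probes). Since the probe was not well above background in double-negative, the fold is a bound, at least 3.97-fold, taken against the dimmest probe well above background on each array. The bound was at least 5.61-fold over double-positive (adjusted p = 0.131) and at least 5.25-fold over Endoglin-only (adjusted p = 0.0698), neither of them called. The interaction defined below was -3.21 ± 0.92 (adjusted p = 0.224). In sorted bulk samples, fewer cells with the transcript and less of it per cell cannot be told apart.

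The Hoxd1 call rested on single arrays and on the treatment of dim signals. Its adjusted p rose to 0.131 when the Flk1-only replicate 1 was left out and to 0.105 for replicate 2. It was 0.0508 and 0.0606 when the double-negative replicate 2 or 3 was left out, 0.0512 for the double-positive replicate 1 and 0.0542 for the Endoglin-only replicate 2. After normexp, which adds an offset to all signals, the difference was 0.13 ± 0.31 (adjusted p = 0.829), and with the slide as a block it was 4.03 ± 0.95 (adjusted p = 0.242). Over all alternatives that give one, the adjusted p of this difference ran from 0.0269 to 0.829. On slide 1, which held the 3 double-negative arrays and 1 of Flk1-only, the difference was 4.03. On slide 2, with 2 arrays each of Flk1-only and double-positive, double-positive minus Flk1-only was -3.69, about as large as over all arrays (-3.94).

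The promoters of Hoxd1, Hoxd4 and Hoxd8 are shown as those of the 3 cluster d genes with the lowest F test p. They are the 250 bases before the start of the gene from RefSeq (GRCm38.p6, plus strand), at chr2:74704365-74704614 for Hoxd8, chr2:74721728-74721977 for Hoxd4 and chr2:74762730-74762979 for Hoxd1. Capitals mark TTTATG, a core of caudal sites, and AGGTCA, a retinoic acid receptor half-site, on either strand.
Hoxd8: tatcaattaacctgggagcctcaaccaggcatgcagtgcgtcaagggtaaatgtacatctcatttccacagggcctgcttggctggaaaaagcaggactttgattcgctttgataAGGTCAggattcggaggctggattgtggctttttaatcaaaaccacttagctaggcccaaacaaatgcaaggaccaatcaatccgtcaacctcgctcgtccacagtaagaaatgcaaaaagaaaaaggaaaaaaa
Hoxd4: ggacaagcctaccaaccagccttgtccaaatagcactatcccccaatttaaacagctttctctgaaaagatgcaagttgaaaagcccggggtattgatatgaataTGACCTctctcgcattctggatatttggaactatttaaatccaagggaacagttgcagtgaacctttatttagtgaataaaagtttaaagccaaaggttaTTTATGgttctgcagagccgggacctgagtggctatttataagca
Hoxd1: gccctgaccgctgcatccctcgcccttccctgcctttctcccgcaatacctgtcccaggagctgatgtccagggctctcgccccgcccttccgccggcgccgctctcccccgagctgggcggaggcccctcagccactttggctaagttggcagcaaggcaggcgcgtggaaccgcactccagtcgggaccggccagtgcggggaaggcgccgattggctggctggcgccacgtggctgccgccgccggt
G and C made up 71.6% of the Hoxd1 window, 44.4% of Hoxd8 and 40.4% of Hoxd4, with 74.4% in that of Hoxd13, against a median of 52.4% over 32851 promoters. TTTATG was present in 10.76% of all promoters and in 5 of the 24 Hox promoters in the table (22 Hox genes), and AGGTCA in 14.02% and in 6. A match of such short letters is a description and not a site.

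In the central part of cluster c, Hoxc6 and Hoxc8 were high in the fractions that carry 1 of the 2 proteins and low in those with neither or both. Both genes pattern the thoracic part of the axis, and their probes (chr15:102839635-102839696 and chr15:102820966-102821025) lie next to each other among the cluster c members on the array. Hoxc6 had levels of -3.26, -2.99 and -3.23 in double-negative, -1.30, 0.42 and -1.30 in Flk1-only, -3.47, -2.58 and -4.08 in double-positive and -0.10, -1.86 and -0.47 in Endoglin-only. The Hoxc6 probe was well above background on all 12 arrays. Its 6 arrays of the fractions with a single protein all lay above the 6 others. How many of all genes separate in this way was not counted, here or for Hoxc8 below. The difference by Endoglin was thus -2.65 ± 0.64 among Flk1 positive cells (adjusted p = 0.370) and 2.35 ± 0.64 among Flk1 negative cells (adjusted p = 0.119).

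The interaction, the first of these differences minus the second, was -5.00 ± 0.91 for Hoxc6 (adjusted p = 0.0616), so it missed the threshold; 0 Hox genes and 0.273% of all genes had a called interaction in limma, and 6 of 35 had an unadjusted p under 0.05 (10.5% of all genes). With every probe tested on its own the adjusted p of Hoxc6 was 0.0479 (0.549% of all probes called). Hoxc6 has 1 probe on the array, so this test used the same values among a larger set of tests. The adjusted p was 0.0829 with no filter on dim probes and 0.0435 without double-negative replicate 2. Over all alternatives that give one it ran from 0.0435 to 0.450, with an interaction between -5.52 and -3.12. Within slides, Flk1-only minus double-negative was 1.85, double-positive minus Flk1-only was -2.59 and double-positive minus Endoglin-only was -3.26, the same directions as over all arrays.

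Hoxc8 followed the same order with a wider spread. Its levels were -4.14, -6.52 and -7.27 in double-negative, -3.14, -0.71 and -2.04 in Flk1-only, -8.07, -7.97 and -3.56 in double-positive and -0.32, -2.0 and -0.57 in Endoglin-only. The single-protein fractions again lay above the others on all arrays, by a small margin between Flk1-only replicate 1 and double-positive replicate 3. The probe was well above background on 1 double-negative array and 1 double-positive array, so the size of these differences depends on values near background. The interaction was -9.58 ± 1.77 (adjusted p = 0.0650, 0.0479 with every probe tested and 0.0858 with no filter on dim probes). Hoxc8 passed the filter through the fractions in which it is high, which the interaction sets against the others.

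Single arrays decided the calls of Hoxc8. Without double-positive replicate 3 the interaction was -11.07 (adjusted p = 0.0146) and double-positive minus Endoglin-only was -7.06 (adjusted p = 0.0338), against -5.57 ± 1.25 (adjusted p = 0.144) with it. Endoglin-only minus double-negative was 5.01 ± 1.25 (adjusted p = 0.0892, and 0.0335 without double-positive replicate 3), and without double-negative replicate 1 the interaction had an adjusted p of 0.0308. Endoglin-only and double-negative share no slide, and with the slide as a block this difference turned to -1.22 ± 2.04.

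Hoxd8, the paralog of Hoxc8 in cluster d, was well above background on all arrays of the same fractions. Its levels were -2.96, -5.47 and -3.93 in Flk1-only and -1.37, -1.51 and -4.80 in Endoglin-only, against -7.80, -6.07 and -5.33 in double-negative and -7.92, -6.45 and -5.08 in double-positive. Here the groups overlapped, since Flk1-only replicate 2 fell below the highest arrays of the low fractions. Hoxd8 was not well above background on any double-negative array, and Endoglin-only exceeded it at least 8.64-fold (3.84 ± 1.11 as measured, adjusted p = 0.145). The interaction was -6.20 ± 1.57 as measured (adjusted p = 0.164, and 0.214 with no filter on dim probes), a size that rests on values near background in the low fractions. Hoxd8, too, passed the filter through the fractions in which it is high. Hoxb8, the other member of the paralog group, had an interaction of 0.74 ± 1.48 (adjusted p = 0.876).

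The neighbours of Hoxc6 and Hoxc8 differed less. Hoxc5, on one side, had mean levels of -0.22 in double-negative, -0.71 in Flk1-only, -0.83 in double-positive and 0.10 in Endoglin-only. Hoxc9, on the other, had -1.98, -0.75, -1.96 and -1.50 in that order. Hoxc4, at the anterior end of the cluster on the array, was higher in double-negative (-2.29, -2.60 and -1.81) than in Flk1-only (-3.71, -3.00 and -3.34), with no overlap and a difference of -1.12 ± 0.42 (adjusted p = 0.212).

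Markers of allantois and extraembryonic mesoderm are set beside Hoxc6, Hoxc8 and Hoxd8, whose course they shared by some measures and not by others. The summed level of the 10 markers (the sum of linear signals over the 75th percentile) was 4.80 to 23.6 in double-negative, 18.5 to 29.0 in Flk1-only, 26.7 to 31.2 in double-positive and 65.3 to 74.8 in Endoglin-only. Of the 10, 6, 10, 9 and 10 were well above background on all 3 arrays of those fractions, and 1 was so on no array of double-negative. The summed level was highest in Endoglin-only, where Hoxc8 and Hoxd8 were highest too, but double-positive was not below Flk1-only in it. The median over the markers of their mean log2 levels was -4.13, -0.84, -1.58 and -0.01 in double-negative, Flk1-only, double-positive and Endoglin-only, so by this measure double-positive lay below both single-protein fractions. The interaction was negative for 9 of the 10 markers with a median of -4.57, against 0.14 over all genes, and 2 of them were called (0.273% of all genes). A negative interaction was not particular to this list. Among 10 markers of trophoblast and extraembryonic ectoderm it was negative for 9, with a median of -2.74 and 0 called. The part of either kind of cell in the Hox values was not tested.

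**Figure D2:**
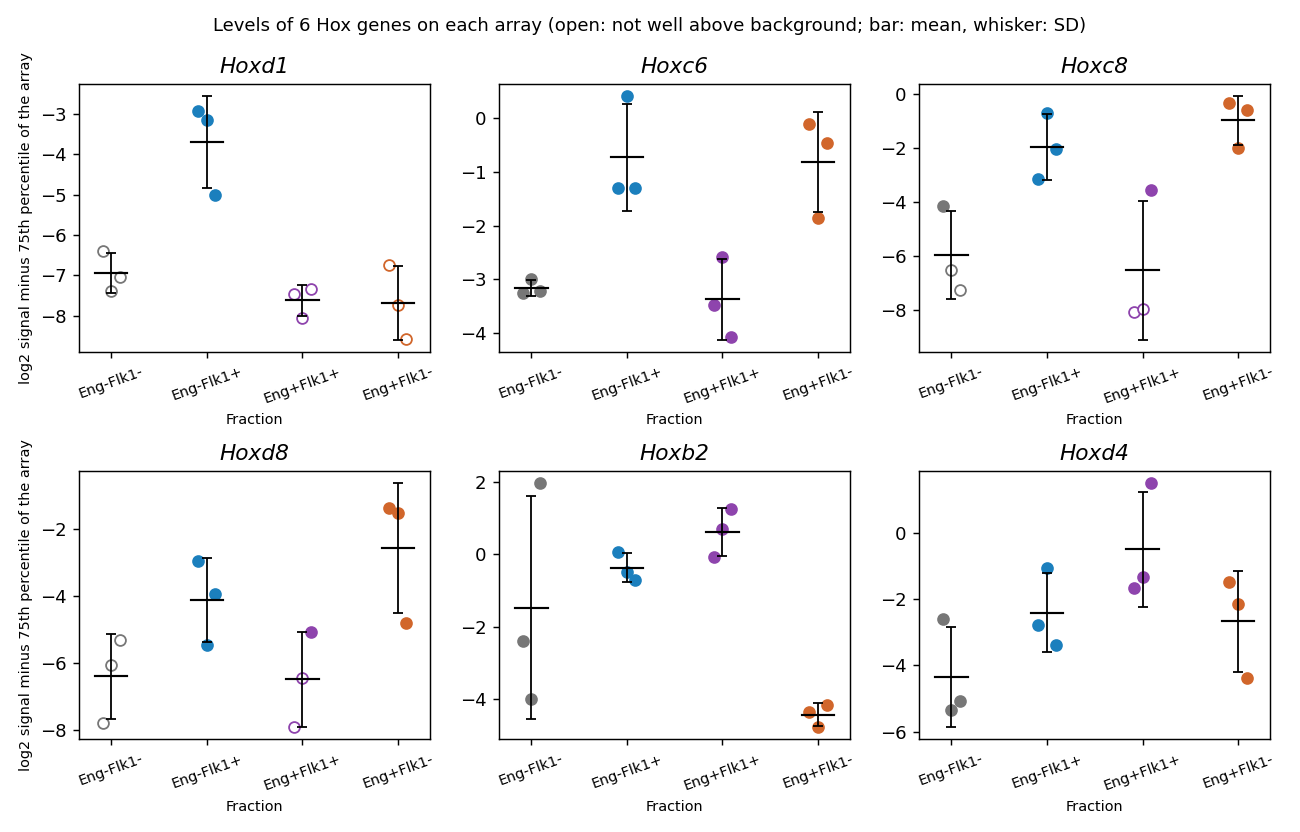
Levels of 6 Hox genes by fraction, as log2 signal minus the 75th percentile of the array; each point is 1 array, open where not well above background, with the mean (bar) and SD (whisker) of 3 arrays. Hoxd1 is high in Flk1-only (mean -3.69), Hoxc6, Hoxc8 and Hoxd8 in both fractions with a single protein, and Hoxb2 is low in Endoglin-only.

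Hoxb2, an anterior gene known for its role in the hindbrain, was low in Endoglin-only. Its probe (chr11:96169898-96169957) had levels of -4.35, -4.78 and -4.17 there, against 0.07, -0.48 and -0.71 in Flk1-only and -0.08, 0.69 and 1.23 in double-positive. The 6 Flk1 positive arrays lay far above the 3 of Endoglin-only, while the double-negative arrays were scattered at -2.40, -3.99 and 1.96. Double-positive minus Endoglin-only was 5.04 ± 1.18 (adjusted p = 0.165) and Flk1-only minus Endoglin-only was 4.06 ± 1.18 (adjusted p = 0.424).

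Both differences of Hoxb2 were called when double-negative arrays were left out or all arrays were weighted by quality. Without all 3 of them the adjusted p was 0.00337 and 0.0129, without double-negative replicate 3 alone 0.00706 and 0.0286, and with array weights 0.00736 and 0.0146. On slide 3, with 1 array of double-positive and 3 of Endoglin-only, the difference was 5.66. Markers of trophoblast and extraembryonic ectoderm were high in Endoglin-only, with a summed level of 22.3 to 30.1 over 10 markers against 4.13 to 7.41 in double-negative, 4.20 to 8.22 in Flk1-only and 5.11 to 10.7 in double-positive. Of the markers, 10 passed as well above background on every array in Endoglin-only and in Flk1-only and 8 in each of the others, with 1 on no array of double-negative; their part in the Hoxb2 level was not tested. Hand1 is in both this list and that of the allantois, and Cdx2 is also among the upstream regulators below.

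The other probe of Hoxb2 gave another picture. It is listed on the minus strand (chr11:96166636-96166695), opposite to the other 14 cluster b probes, and was designed on a different transcript record. Its levels were -3.21, -2.83 and -1.71 in Endoglin-only, within the range of its other arrays (-3.91 to 1.03), and Flk1-only minus Endoglin-only was -0.12 ± 1.17. Whether it reads Hoxb2 or a transcript of the other strand was not tested.

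Hoxb3, the next gene, had a second probe (chr11:96163778-96163837) that ran like Hoxb2. Its levels were -6.54, -4.78 and -5.72 in Endoglin-only and -4.69, -3.74 and -5.11 in double-negative, against -3.44, -2.99 and -2.13 in Flk1-only and -2.42, -1.99 and -2.16 in double-positive. All Flk1 positive arrays lay above all Flk1 negative ones. With every probe tested on its own, double-positive minus Endoglin-only rose by 3.49 ± 0.59 (adjusted p = 0.0423, 0.341% of all probes called) and the F test had an adjusted p of 0.0268 (2.63%). This second probe was well above background on 2 of 3 arrays in double-negative and in Endoglin-only, and on all 3 in each Flk1 positive fraction. It thus passed the filter through the fractions in which it is high. The probe that stands for Hoxb3 had means of 0.09 in double-positive and 0.13 in Endoglin-only. It has no value on Flk1-only replicate 1, where its spot was marked as an outlier.

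Over cluster b, 8 of the 9 tested genes were higher in double-positive than in Endoglin-only, with a median of 0.78 and 0 called, while 11151 of 22724 genes in all were higher. The count was 7 after normexp (median 0.18), 8 after quantile normalization and 8 in the authors' deposited table. In Endoglin-only minus double-negative, which share no slide, 1 of 9 was higher (median -0.49), while 10802 of 22724 genes in all were higher. That count was 2 after normexp, 2 after quantile normalization and 1 in the authors' deposited table. Hoxb9, the gene next to Hoxb8, had levels of 0.02, 1.52 and -1.12 in double-negative and 0.90, -1.26 and 0.54 in Flk1-only, against -3.17, 0.08 and -2.48 in double-positive and -1.55, -1.42 and -3.04 in Endoglin-only. Its Endoglin positive arrays were lower than its Endoglin negative ones apart from 1 double-positive array, with an F test adjusted p of 0.455. The other Hoxb9 probe did not show this, with -3.07, -3.10 and -0.45 in Endoglin-only and a difference from double-negative of 0.30 ± 1.33 (adjusted p = 0.938), against -2.14 by the first probe.

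The 2 probes of Hoxb6 and of Hoxa13 differed in brightness and in course. The bright Hoxb6 probe had levels of 4.28, 4.36 and 4.99 in double-negative and 3.64, 3.86 and 3.44 in Flk1-only, a difference of -0.90 ± 0.37 (adjusted p = 0.244). It stayed between 3.81 and 4.26 on the arrays of double-positive and Endoglin-only. The other Hoxb6 probe moved the other way, with -3.04, -2.17 and -1.75 in double-negative and 0.10, -0.48 and -1.56 in Flk1-only (1.67 ± 0.85, adjusted p = 0.330). The bright probe was designed on another transcript record (chr11:96115057-96115116) than the other (chr11:96117339-96117398).

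Hoxa13, the most posterior gene of cluster a, had levels between 2.87 and 4.12 on all 12 arrays by its bright probe. By the other probe, in the homeobox, they were -4.91, -5.83 and -6.99 in double-negative, -1.38, -0.96 and -1.33 in Flk1-only, -4.89, 0.90 and -0.48 in double-positive and -0.02, -1.28 and 0.22 in Endoglin-only. Endoglin-only minus double-negative rose by 5.55 ± 1.23 with every probe tested (adjusted p = 0.0488, 2.01% of all probes called). The probe was well above background on 1 of 3 arrays in double-negative and on all 3 in each other fraction. It thus passed the filter through the fractions in which it is high, and the size rests on values near background. This probe is set beside those of Hoxb13 and Hoxd13 because the 3 lie on the same part of the homeobox, with the 23 bases of 44 that all 3 share in capitals.
Hoxa13: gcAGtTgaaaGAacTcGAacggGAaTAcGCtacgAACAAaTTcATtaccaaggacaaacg
Hoxb13: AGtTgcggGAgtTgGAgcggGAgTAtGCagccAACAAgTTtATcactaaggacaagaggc
Hoxd13: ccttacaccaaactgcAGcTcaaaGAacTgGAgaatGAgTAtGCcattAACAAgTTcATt
Identity without gaps was 68.97% between Hoxa13 and Hoxb13 over 58 bases, 71.74% between Hoxa13 and Hoxd13 over 46 and 63.64% between Hoxb13 and Hoxd13 over 44. The Hoxb13 probe had levels of 0.39, 0.72 and 2.71 in double-negative and stayed between 0.41 and 1.63 on the other arrays. The Hoxd13 probe had -3.69, -3.31 and -3.72 in double-negative and -0.69, -2.85 and -0.54 in Endoglin-only. These probes of the 3 paralogs therefore did not follow one course over the fractions.

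**Figure D3:**
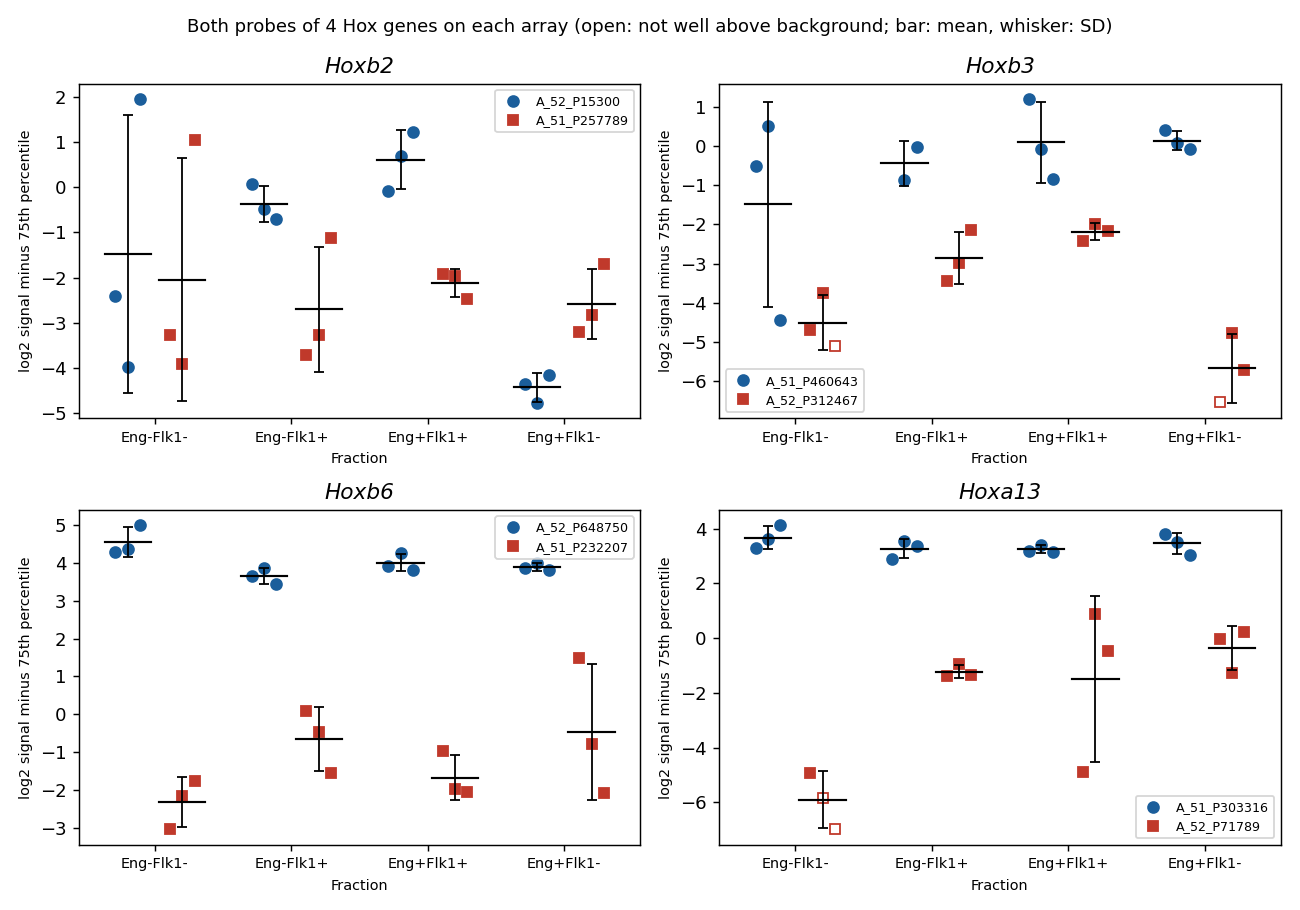
Both probes of 4 Hox genes by fraction, as log2 signal minus the 75th percentile; points are arrays (open where not well above background), bars are means and whiskers SD of 3 arrays, or of 2 for the Hoxb3 probe without a value on 1 Flk1-only array. In each gene the probes differ in course, and the second Hoxb3 probe is low in Endoglin-only as is the first Hoxb2 probe.

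Hoxd4, a gene of the hindbrain and neck region, was lowest in double-negative and highest in double-positive. Its levels were -2.61, -5.36 and -5.08 in double-negative and -1.67, -1.33 and 1.48 in double-positive, with no overlap, and the difference was 3.84 ± 1.11 (adjusted p = 0.123). In Flk1-only they were -2.78, -1.08 and -3.38 and in Endoglin-only -1.50, -2.15 and -4.38, overlapping double-negative. Endothelial markers (10 genes) had a summed level of 37.7 to 76.5 in double-positive against 3.86 to 6.03 in double-negative, 14.0 to 17.9 in Flk1-only and 2.98 to 4.35 in Endoglin-only. All 10 were well above background on all 3 arrays of the Flk1 positive fractions and 7 in each of the others, none of them on no array; their part was not tested.

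Of the 11 genes of cluster a, 0 were called by limma. Hoxa11, known from the allantois and the limb, was higher in double-negative (-2.68, -2.52 and -4.36) than in Flk1-only (-5.02, -4.55 and -6.57) by a difference of -2.20 ± 0.66 (adjusted p = 0.140), with no overlap. This difference was called after quantile normalization (-2.94, adjusted p = 0.0453). In double-positive Hoxa11 had -4.04, -4.61 and -4.39 and in Endoglin-only -3.59, -4.43 and -4.92.

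Hoxa7 stood higher in Flk1-only (-0.84, -0.47 and -0.82) than in double-positive (-2.41, -2.64 and -2.82), with no overlap and a difference of -1.91 ± 0.66 (adjusted p = 0.810). Its levels were -2.52, -2.16 and -1.16 in double-negative and -2.44, -0.23 and -2.96 in Endoglin-only. Hoxa2, the anterior neighbour of Hoxa3, had -1.27, -2.52 and -2.44 in Endoglin-only, above all arrays of double-positive (-3.08, -2.75 and -3.82) and of Flk1-only (-3.68, -2.82 and -3.42), and -2.98, -2.50 and -2.19 in double-negative. The difference double-positive minus Endoglin-only was -1.14 ± 0.50 (adjusted p = 0.741). Hoxa9, a regulator of blood stem cells later in life, had -0.71, 1.90 and -0.32 in double-negative and 2.29, 2.36 and 2.10 in double-positive. Its adjusted p in double-positive minus double-negative was 0.0289 without double-negative replicate 2 and 0.216 with it. The Hoxa9 probe shares a run of 22 bases with the probe that stands for Hoxb3. Whether either probe also reads the other gene was not tested.

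**Figure D4:**
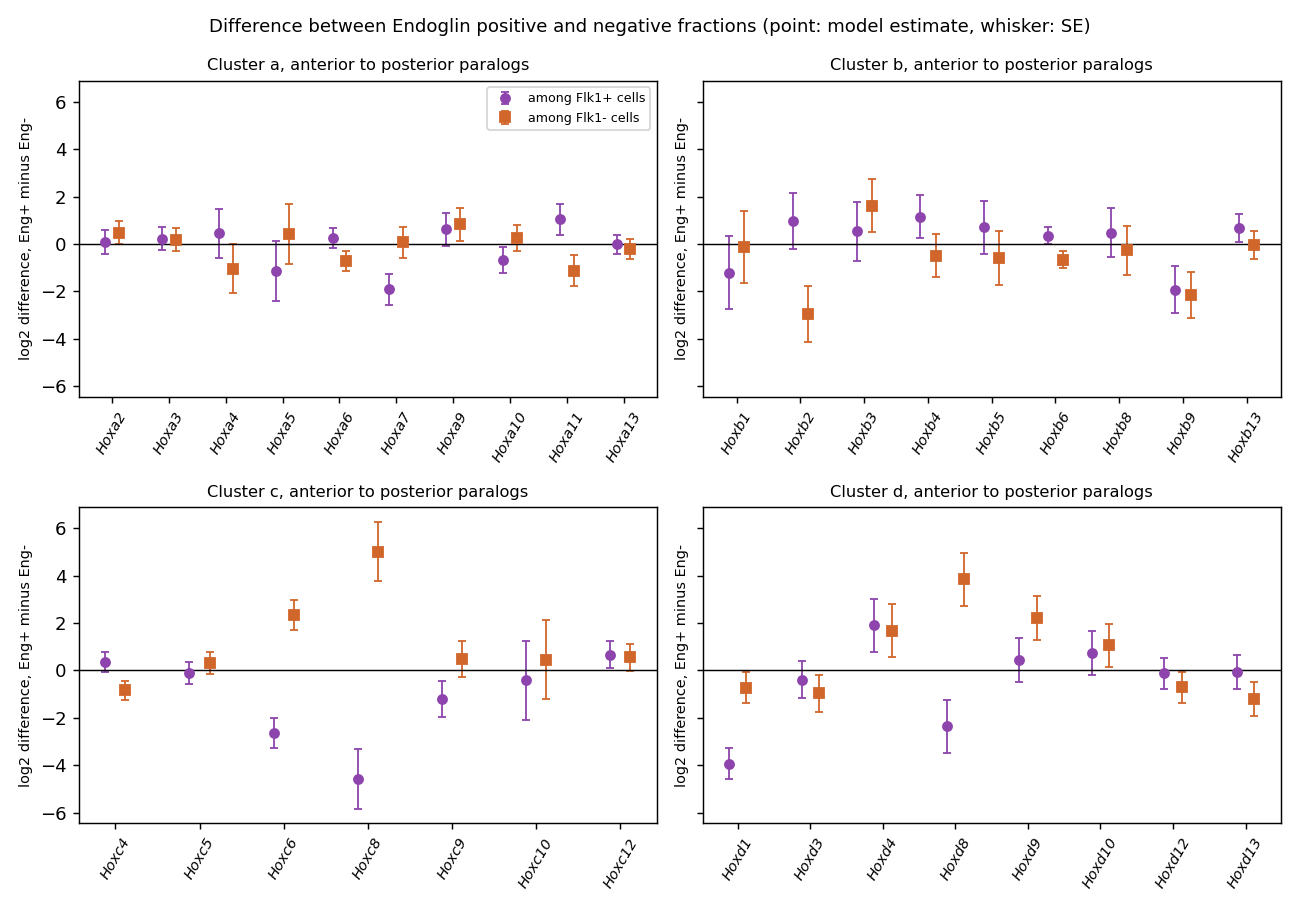
Difference in log2 level between Endoglin positive and negative fractions for 34 tested Hox genes, in 4 panels by cluster with paralogs from anterior to posterior; circles are among Flk1 positive and squares among Flk1 negative cells, with SE. Hoxc6 (-2.65 and 2.35), Hoxc8 and Hoxd8 are lower with Endoglin among Flk1 positive and higher among Flk1 negative cells; Hoxd1 (-3.94 among Flk1 positive cells) and Hoxb2 (-2.95 among Flk1 negative cells) also lie far from 0.

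By position along the axis, the 8 anterior genes of paralogs 1 to 3, the 14 tested central genes and the 13 tested posterior genes had median Endoglin differences of -0.15, 0.30 and -0.02 among Flk1 positive cells. Among Flk1 negative cells the medians were -0.03, -0.10 and 0.26.

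Genes that act with or on Hox genes were given from 6 lists. Of the 9 TALE cofactors, all tested, 1 fell in Endoglin-only minus double-negative (1.46% of all genes called) and none was called in the other comparisons or the interaction. Meis1, a cofactor that binds DNA with Hox proteins, had levels of 3.70, 2.86 and 2.67 in double-negative and 0.00, 0.48 and -1.81 in Endoglin-only, a difference of -3.52 ± 0.66 (adjusted p = 0.0304). Its arrays in Flk1-only (1.56, 1.82 and 2.25) and double-positive (1.74, 3.51 and 2.58) lay above those of Endoglin-only, as did those of Hoxb2.

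Of 12 tested caudal and other upstream regulators, 2 were called, all calls being lower than in double-negative. In double-positive both were called (2.36% of all genes), and 1 each in Flk1-only (1.91%) and Endoglin-only (1.46%). Cdx2, a caudal factor that activates central and posterior Hox genes, was low in double-positive (-3.36, -6.98 and -3.05) against -0.04, -0.49 and 1.53 in double-negative, a difference of -4.80 ± 0.98 (adjusted p = 0.0317). In Flk1-only it had 0.45, -0.99 and -1.13 and in Endoglin-only 1.12, 0.73 and 1.49. A relation of Cdx2 to the Hox levels was not tested. Gbx2, a factor of the hindbrain border, was lower in each other fraction than in double-negative, by -4.0 ± 0.75 in Flk1-only (adjusted p = 0.0246), -5.11 in double-positive (adjusted p = 0.00647) and -3.94 in Endoglin-only (adjusted p = 0.0318).

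Of 11 Trithorax and demethylase genes, 2 were called, each higher than in double-negative in all 3 other fractions, where 1.91% (Flk1-only), 2.36% (double-positive) and 1.46% (Endoglin-only) of all genes were called. Men1, a subunit of the MLL complex that keeps Hox genes active, had levels of -4.55, -2.87 and -4.84 in double-negative, -0.24, -0.01 and -0.40 in Flk1-only, -1.31, -2.02 and -1.70 in double-positive and -0.04, -0.49 and -0.90 in Endoglin-only. It was higher in both single-protein fractions than in double-positive on every array, and its interaction was called at -5.07 ± 0.76 (adjusted p = 0.0265). Kdm6a, a demethylase that removes the Polycomb mark, was higher than in double-negative by 5.77 ± 0.89 in Flk1-only (adjusted p = 0.00970), 5.25 in double-positive (adjusted p = 0.0131) and 4.51 in Endoglin-only (adjusted p = 0.0367), from a probe well above background on 1 double-negative array.

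Of 23 tested Polycomb genes, 1 was called, in double-positive minus double-negative (2.36% of all genes). Cbx7, a chromodomain subunit, was lower in double-positive (-7.74, -7.23 and -5.28) than in double-negative (-1.88, -3.30 and 0.68) by -5.25 ± 1.18 as measured (adjusted p = 0.0474), with the probe well above background on 1 of the 3 double-positive arrays. It was also near background in Flk1-only (-3.31, -6.28 and -7.30) and stood at -0.59, -0.16 and -0.56 in Endoglin-only. With the slide as a block, no call of a gene in these lists was left.

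None of 17 retinoic acid genes and none of 14 genes that flank the clusters was called by limma in any comparison, with up to 4 and 2 genes at an unadjusted p under 0.05. Crabp1, a binding protein of retinoic acid, came nearest with 5.0, 5.13 and 5.02 in Flk1-only against 1.57, 3.65 and 2.34 in double-negative (2.53 ± 0.58, adjusted p = 0.0577). Its arrays in Flk1-only, the fraction with Hoxd1, lay above all 9 others. Stra6, a retinol transporter, was lower in Flk1-only than in double-negative by -1.53 ± 0.42 (adjusted p = 0.109). Beyond the clusters, Smug1 had an interaction of -3.97 ± 1.21 (adjusted p = 0.259), and Skap1 differed by 1.51 ± 0.62 in double-positive minus Endoglin-only (adjusted p = 0.688).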

How the data were processed

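Gene expression was measured on 12 Agilent arrays with 1 colour, 3 for each of 4 fractions. Per the labels' protocols, SuperAmp, a global PCR, amplified the messenger RNA, and Cy3 labelled 250 ng of the cDNA. Per the file headers, the deposited intensity values come from Feature Extraction 10.5.1.1 and positions refer to build mm8. Flags of the deposited scanner files (0 or 1 for each spot) are the other kind of value used. The authors also deposited processed intensity, found here to be divided by each array's median. Of its columns, 12 with flags were not used. The series' design text names GeneSpring GX, with settings not given in the sources used here.

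From the scanner files, outlier spots were set aside, the 75th percentile of log2 processed signal was subtracted on each array and spots of a probe were averaged. Each gene was represented by its probe with the highest mean. Genes whose probe was well above background throughout 1 fraction or more were tested with limma 3.58.1 in R 4.3.3 (tables read with version 1.17.8 of data.table), in 1 model with 4 groups, and p-values were adjusted by Benjamini-Hochberg over all genes of a comparison. Names other than those of Hox genes were updated with a RefSeq table (GRCm38.p6, names only), by accession for 24328 probes, and the file's name was kept for 8019. Alternatives changed the background correction, normalization, filter, probe, error model and arrays included. The slide was taken from the file headers. The code was tested on simulated data. The number of arrays limits the precision.

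Named members are those called in any test and the 3 of each cluster with the lowest F test p; Hoxa9, Hoxb3, Hoxa13, Hoxb13 and Hoxd13 and the neighbours were added for their probes or position after their values were seen. From each gene list, called members are named, or the 2 with the lowest F test p. The members and lists were chosen with earlier results of these data known. Some items are not reported here.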

Additional observations from a re-analysis of the deposited data

Results flagged for a closer look

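The interaction test compares the difference by Endoglin between Flk1 positive and Flk1 negative cells. It was called over genes for Men1, and for Hoxc6 and Hoxc8 with each probe tested on its own. Hoxc6 and Hoxc8 have 1 probe each on the array, so that test used the same values among a larger set of tests. For Hoxc6 the interaction was -5.00 and for Hoxc8 -9.58 on the log2 scale, both with a limma adjusted p of 0.0479 when each of 33142 probes was tested on its own, where 0.549% of probes were called; over genes they missed the threshold. The Hoxc8 probe was well above background on 1 double-negative and 1 double-positive array and passed the filter through the fractions in which it is high, so its size is uncertain. For Men1 it was -5.07 (adjusted p = 0.0265 over genes), a call that was not left with the slide as a block. Groups of 3 arrays are too small for a test of single outlying arrays, and none was made.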

How the results depend on the processing

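The precision of all values is limited by 3 arrays a fraction and by dim probes. The count of called Hox genes in Flk1-only minus double-negative (1) became 0 after normexp and with only genes well above background on all 12 arrays. It was also 0 with the slide as a block, with an intensity trend, with array weights and in the authors' deposited table. When single arrays were left out it was 0 to 1. Without double-negative replicate 3 it stayed 1 through another Hox gene, as Hoxd1 was not called (adjusted p = 0.0606). After quantile normalization it was 1, but Hoxa11 in place of Hoxd1. In double-positive minus Endoglin-only (0) it was 2 with array weights (Hoxb2, Hoxc8), 1 without the 3 double-negative arrays (Hoxb2), 1 with every probe tested (Hoxb3) and 0 to 1 without single arrays. In Flk1-only minus Endoglin-only (0) it was 2 with array weights (Hoxb2, Hoxd1), 1 without the 3 double-negative arrays (Hoxb2) and 0 to 1 without single arrays. In Endoglin-only minus double-negative (0) it was 1 with every probe tested (Hoxa13) and 0 to 1 without single arrays, and in double-positive minus double-negative (0) it was 0 to 1 without single arrays. The interaction (0) had 2 with every probe tested (Hoxc6, Hoxc8) and 0 to 1 without single arrays. The F test (1) had 0 after normexp, with genes above background on all 12 arrays, with the slide as a block and with array weights, 2 with every probe tested and 0 to 2 without single arrays. The cause of these changes was not tested, except that fewer genes or arrays enter some of them. Over all genes, the slide block left 16 calls of 435 in Flk1-only minus double-negative.

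Directions turned for Hoxc8 in Endoglin-only minus double-negative (-1.22 with the slide as a block), Hoxb4 in double-positive minus Endoglin-only (-0.0796 with the slide as a block and within slide 3), and with another probe for Hoxb6 in Flk1-only minus double-negative (1.67), Hoxd13 in double-positive minus double-negative (0.48) and Hoxb2 in Flk1-only minus Endoglin-only (-0.12). Deviations from the fraction mean, for arrays of the same replicate number, had correlations across genes from -0.09 to 0.13. Arrays of different numbers were not compared in this way, so whether the numbers pair samples was not settled. With a replicate block Hoxd1 in Flk1-only minus double-negative was 3.26 ± 0.57 (adjusted p = 0.0364), and the replicate block moved no count of called Hox genes.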
